A study of Mus musculus with 6 samples.

Results

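YAP1 and 9 further genes of the Hippo pathway were followed through the transcript lists of 6 melanoma xenograft tumours, with attention to the exon combinations of YAP1 transcripts. The genes were taken by their human Ensembl identifiers: YAP1, WWTR1, TEAD1, TEAD4, CCN1, CCN2, AMOTL2, ANKRD1, LATS1 and LATS2. Of these 10 genes, 9 had at least 1 entry, out of 14202 Ensembl genes listed in all. TEAD4 had no entry in the 6 lists and was not analysed here. The set was chosen by the gene names together with 1 measured value: the inclusion of a 48-base exon of YAP1 was selected on its difference between the groups in these tumours. All values of YAP1 are therefore given as a description, with no test.

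The ZLD1039 group consisted of 3 tumours from mice given ZLD1039 at 100 mg/kg by mouth once a day until day 27. It was set against 3 tumours from mice given vehicle alone over the same time. The compound blocks EZH2, the enzyme of the Polycomb repressive complex that methylates histone H3. All tumours grew under the skin of BALB/c nude mice, which lack T cells but keep other immune cells, from A375, an established human melanoma line that the labels give as wild type. The labels put 5 mice in each group and do not say outright that each sequenced tumour came from its own mouse, so the p-values below refer to the spread from tumour to tumour, which may be partly technical.

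The Hippo pathway controls organ size and the response of cells to contact and tension. Its kinases LATS1 and LATS2 phosphorylate the coactivators YAP1 and TAZ, the product of WWTR1, and keep them out of the nucleus. When unphosphorylated, the coactivators enter the nucleus and bind the TEAD transcription factors at target genes such as CCN1, CCN2, AMOTL2 and ANKRD1. Human YAP1 is made as several isoforms. An optional exon carries the second WW domain, which binds PPxY motifs of partner proteins, and further along a short extension of an exon and an optional short exon change the leucine zipper stretch of the activation domain. In the usual naming the alpha form has neither of these 2 insertions, beta has the extension, gamma has the short exon and delta has both.

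For every tumour the authors listed transcript events, that is start sites, end sites, skipped or included exons, retained or spliced introns and alternative exon ends, each with its abundance in FPKM, the fragments of a transcript scaled by its length and by the size of the library. The lists held 124351 to 133052 distinct events in the ZLD1039 tumours and 129823 to 134222 in the vehicle tumours. The 9 listed genes accounted for 80 of 187304 distinct events over all tumours, 23 of them in YAP1. Sequencing depth is unknown, and counting errors cannot be worked out. ZLD1039 tumour 2 stood apart: its mean correlation with the other 5 over all tested loci, on the log2 scale, was 0.919, against 0.934 to 0.943 for those 5. The chromosome numbers run up to 22 and the identifiers are human, although the labels give the mouse. Mouse host reads that were placed on the human genome cannot be separated. Of 7 identifiers set down from background knowledge as melanocyte lineage genes, 3 were listed in all tumours and 3 in none. The summed level of the 7 was 24.3 to 56.2 FPKM in ZLD1039 tumours and 53.9 to 81.2 FPKM in vehicle tumours. The 3 that could be tested were all lower under ZLD1039, with log2 differences from -0.98 to -0.36. None passed an adjusted p of 0.05, and 1 had an unadjusted p under 0.05 (limma), beside 535 of 10834 loci. The groups did not overlap at 1 of the 3, beside 10.9% of all loci tested. Of 5 identifiers set down for leukocytes, macrophages, endothelium, fibroblasts and epithelium, 2 were listed in all tumours and 2 in none, and their summed level was 674 to 924 FPKM in ZLD1039 tumours and 635 to 795 FPKM in vehicle tumours. Of the 5, 2 could be tested, 1 higher and 1 lower under ZLD1039, and neither passed. The part of either list in the results below was not tested. In bulk tumours, fewer cells of a type and less RNA per cell cannot be told apart.

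In YAP1 the exon structure differed most clearly in a single exon combination. YAP1 (ENSG00000137693, chromosome 11, plus strand, listed from 101981192 to 102098200) had a first optional exon of 114 bases (102056749 to 102056862), an exon with alternative ends (from 102076624 to 102076805 or to 102076817) and the optional exon of 48 bases (102080248 to 102080295). The longer end adds 12 bases. The 3 lengths are multiples of 3 and correspond to 38, 4 and 16 codons, and they match the known insertions for the second WW domain, the extension and the short exon. The deposited lists give transcripts with and without the 48-base exon separately for either end of the exon before it, which sorts YAP1 transcripts into the 4 combinations alpha, beta, gamma and delta. These names refer below to the exon combination alone, whatever the start site of the transcript, and so not always to a full isoform.

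Delta transcripts, with the longer upstream exon and the 48-base exon, stood at 11.7, 11.6 and 17.8 FPKM in the ZLD1039 tumours, against 0.144, 0.184 and 0.0138 FPKM in the vehicle tumours. All 3 ZLD1039 tumours lay above all 3 vehicle tumours, in which the combination was close to absent. Gamma transcripts, with the shorter upstream exon and the 48-base exon, stood at 14.7, 14.3 and 13.3 FPKM in the ZLD1039 tumours, against 21.8, 2.28 and 1.43 FPKM in the vehicle tumours. Here vehicle tumour 1 was the highest of all 6, and the groups overlapped.

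Beta transcripts, with the longer upstream exon and no 48-base exon, stood at 15.4, 8.61 and 14.1 FPKM in the ZLD1039 tumours, against 2.64, 24.3 and 21.0 FPKM in the vehicle tumours. Vehicle tumour 1 was the lowest of all and the other vehicle tumours the highest, so the groups overlapped. Alpha transcripts, with neither insertion, stood at 11.4, 7.03 and 14.5 FPKM in the ZLD1039 tumours, against 10.6, 11.2 and 12.2 FPKM in the vehicle tumours. The alpha form averaged 10.96 ± 3.73 FPKM under ZLD1039 and 11.3 ± 0.80 FPKM under vehicle (SD, n = 3 each).

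As shares of the 4 combinations, the ZLD1039 tumours were close to an even mix, while each vehicle tumour was led by a single form. Delta held 21.999, 27.97 and 29.8% in the ZLD1039 tumours, against 0.41, 0.49 and 0.040% in the vehicle tumours. Beta held 28.9, 20.7 and 23.6% in the ZLD1039 tumours, against 7.50, 64.0 and 60.6% in the vehicle tumours. Gamma held 27.6, 34.4 and 22.4% in the ZLD1039 tumours, against 61.9, 6.01 and 4.13% in the vehicle tumours. Gamma thus led in vehicle tumour 1 and beta in vehicle tumours 2 and 3. Alpha held 21.4, 16.9 and 24.2% in the ZLD1039 tumours and 30.2, 29.5 and 35.2% in the vehicle tumours, without overlap, although its level overlapped. The whole that these shares are taken of includes delta, so the lower alpha share is not independent of the pick.

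**Figure D1:**
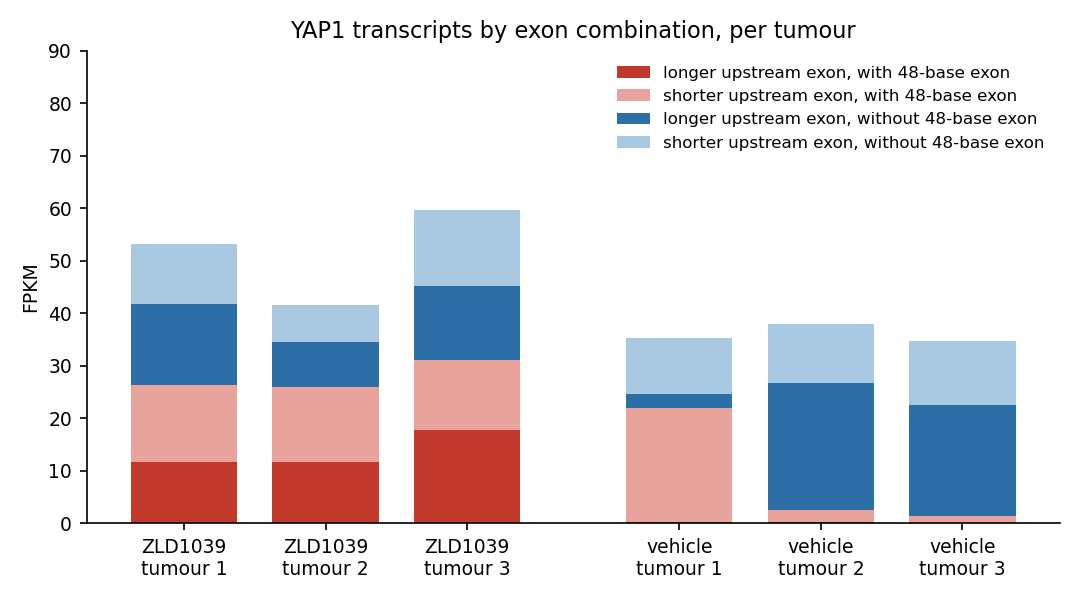
Abundance in FPKM of YAP1 transcripts in each tumour, 3 under ZLD1039 and 3 under vehicle, stacked by the end of the upstream exon and by the 48-base exon. The dark red segment (longer upstream exon with the 48-base exon) measures 11.6 to 17.8 FPKM in the ZLD1039 tumours and at most 0.184 FPKM in the vehicle tumours, and vehicle tumour 1 differs from the other vehicle tumours in its other segments.

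Inclusion of the 48-base exon, the share of transcripts with it among those with and without it, is given by the exon end before it. After the longer end it was 43.2, 57.4 and 55.8% in the ZLD1039 tumours, against 5.18, 0.75 and 0.066% in the vehicle tumours. The group means were 52.1 ± 7.78% under ZLD1039 and 2.00 ± 2.78% under vehicle (SD, n = 3 each), 50.1 percentage points apart. The exon was picked for its group difference, and this is the largest of the differences given for it here. Of 13311 exons, introns and runs of them measured across the series, 213 (1.60%) had a difference at least as large in either direction. Of these 213, 87 had no overlap of the groups. Because the exon was picked for its difference, this place in the series is a description and no measure of chance.

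After the shorter end, inclusion was 56.3, 67.0 and 47.99% in the ZLD1039 tumours, against 67.3, 16.9 and 10.5% in the vehicle tumours. Vehicle tumour 1 was as high as the highest ZLD1039 tumour. Over both ends, inclusion was 49.6, 62.3 and 52.1% in the ZLD1039 tumours, against 62.3, 6.50 and 4.17% in the vehicle tumours. The exon as a whole therefore overlapped between the groups, with a mean difference of 30.4 percentage points, which was 49.4 points without vehicle tumour 1 and 20.3 points without vehicle tumour 3. Without ZLD1039 tumour 2 it was 26.6 points. The longer end of the upstream exon itself made up 50.9, 48.7 and 53.4% of YAP1 transcripts in the ZLD1039 tumours, against 7.91, 64.5 and 60.7% in the vehicle tumours, and the groups overlapped on both sides.

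**Figure D2:**
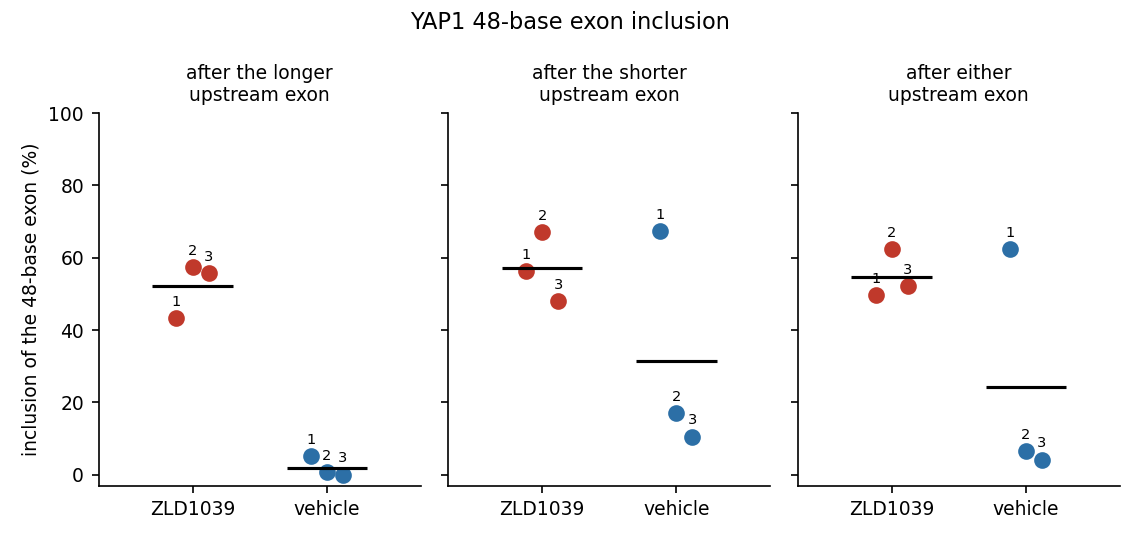
Inclusion of the YAP1 48-base exon in percent, per tumour (numbered points) and group mean (line), for ZLD1039 and vehicle tumours, after the longer end, the shorter end and either end of the upstream exon. The groups are apart only in the left panel (43.2 to 57.4% against 0.066 to 5.18%), while vehicle tumour 1 reaches 67.3% in the middle panel and 62.3% in the right one.

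The delta combination went together with a second start site inside YAP1. Most YAP1 transcripts began at the first start (101981192 to 101981900), at 43.6, 34.5 and 49.3 FPKM in the ZLD1039 tumours, against 35.1, 37.7 and 34.6 FPKM in the vehicle tumours. An internal start (102056812 to 102056862) lay within the 114-base exon and shared its end. It stood at 9.59, 6.95 and 10.3 FPKM in the ZLD1039 tumours, against 0.144, 0.184 and 0.0138 FPKM in the vehicle tumours. These vehicle values equal those of the delta combination in every tumour, within 1e-05 FPKM. In the ZLD1039 tumours the delta combination exceeded the internal start by 2.11, 4.67 and 7.42 FPKM. Transcripts from the internal start begin inside the exon for the second WW domain. They lack the exons before it, so a transcript with the delta combination from this start is not the full delta isoform. The combinations count transcripts from the first and the internal start alike. How much of delta in the ZLD1039 tumours came from either start was not measured. The internal start took 17.4 ± 0.65% of YAP1 starts under ZLD1039 and 0.31 ± 0.24% under vehicle (SD, n = 3 each).

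**Figure D3:**
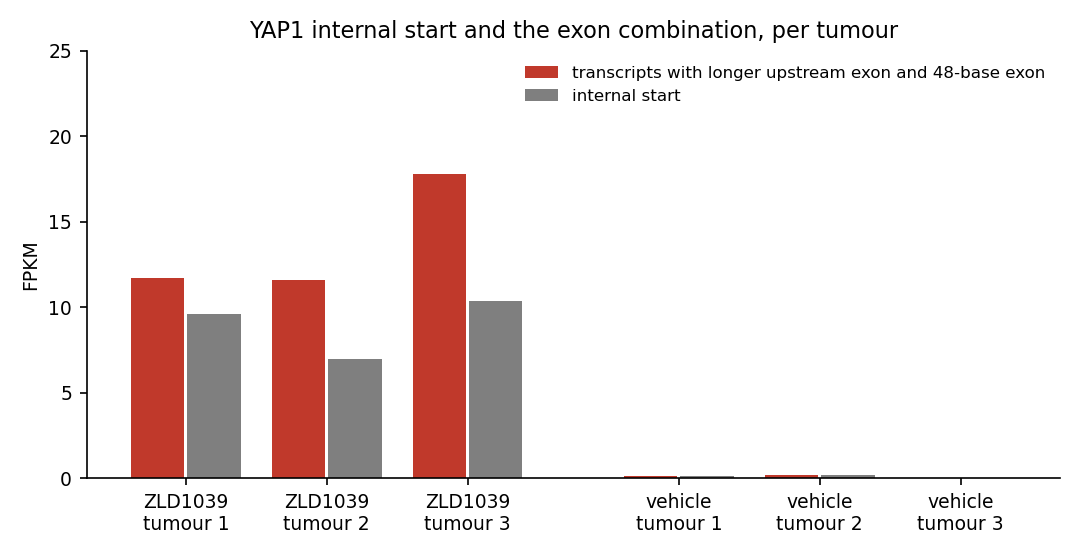
Abundance in FPKM, per tumour, of YAP1 transcripts with the longer upstream exon and the 48-base exon (red) and of the internal start (grey). In the vehicle tumours both are at most 0.184 FPKM and equal; in the ZLD1039 tumours the internal start measures 6.95 to 10.3 FPKM and the exon combination 11.6 to 17.8 FPKM.

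Inclusion of the exon for the second WW domain varied within both groups. Its 114-base form was included at 93.8, 74.4 and 97.97% in the ZLD1039 tumours, against 92.3, 42.5 and 94.9% in the vehicle tumours. Tumour 2 was the lowest in either group, and the groups overlapped. The mean difference of 12.2 points turned to -4.86 points without vehicle tumour 2. A form of this exon with a later end (102056749 to 102056868, 120 bases) was listed at 3.51 and 7.26 FPKM in ZLD1039 tumours 1 and 3 and at 3.99 and 5.77 FPKM in vehicle tumours 1 and 2, and not in the other 2 tumours. With both forms counted, inclusion was 94.3, 74.4 and 98.3% in the ZLD1039 tumours, against 93.1, 51.3 and 94.9% in the vehicle tumours, and the mean difference was 9.21 points. Transcripts that skipped the exon stood at 2.49, 8.85 and 0.85 FPKM in the ZLD1039 tumours, against 2.40, 18.4 and 1.77 FPKM in the vehicle tumours.

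Further YAP1 events were each low or listed in a single tumour. An intron near the 3′ side of the listed span (between the exon edges 102094483 and 102098200) was retained at 3.85% in ZLD1039 tumour 3 and at 0% in the other tumours. A start downstream of all these exons (102097704 to 102097814) was listed at 5.60 FPKM in vehicle tumour 3 alone, where it took 13.9% of YAP1 starts. A further start (101983245 to 101983476) and an early transcript end (102056749 to 102057417) were listed at no more than 0.171 FPKM. Of the 19 YAP1 events that averaged 1 FPKM or more in either group, 4 did not overlap between the groups, all higher under ZLD1039, where 10.3% of 87435 events across the series did not overlap in either direction. They are the delta inclusion event, listed under 2 event kinds with the same value, the internal start, and the spliced form of the intron near the 3′ side, which nearly every transcript carries. They are not independent of each other or of the pick. The delta inclusion event and the internal start both averaged 0.114 FPKM under vehicle, so they passed the filter only through the ZLD1039 group. The count of 4 therefore cannot be weighed against the share over the series.

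The YAP1 locus as a whole stood at 53.2, 41.5 and 59.7 FPKM in the ZLD1039 tumours, against 35.2, 37.9 and 40.3 FPKM in the vehicle tumours. The locus value is the largest of its summed starts, its summed ends and its largest event. All ZLD1039 tumours lay above all vehicle tumours, the lowest of them by little, and 10.9% of 10834 loci in the series showed no overlap in either direction. The means were 51.5 ± 9.18 FPKM under ZLD1039 and 37.8 ± 2.53 FPKM under vehicle (SD, n = 3 each), 0.42 apart on the scale of log2(FPKM + 1). The locus value includes the delta transcripts. Its means differed by 13.7 FPKM and those of delta by 13.6 FPKM, so the missing overlap of the locus is not independent of the pick. In vehicle tumour 3 the locus value also includes the downstream start of 5.60 FPKM that it alone listed. Without that start, the sum of the 4 combinations averaged 51.5 FPKM under ZLD1039 and 35.9 FPKM under vehicle, 15.5 FPKM apart. The first start alone overlapped between the groups. The loci whose level followed YAP1 most closely over the 6 tumours, among 6991 loci with an Ensembl identifier and a mean of at least 5 FPKM, were ENSG00000156873, ENSG00000139505 and ENSG00000072803, with Pearson correlations of 0.987, 0.983 and 0.983 on the log2(FPKM + 1) scale. With 6 tumours and that many loci such values are a description only. The YAP1 level used for them includes the delta transcripts, so this ranking is not independent of the pick either.

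No other member passed the test of a change in level. Of the 7 tested beside YAP1, none passed a Benjamini-Hochberg adjusted p of 0.05 (limma on log2(FPKM + 1) over all 10834 loci, of which 0.0185% passed). None of the 7 had an unadjusted p under 0.05, beside 535 of 10834 loci (limma). The differences ranged from -0.30 for CCN2 to 0.52 for LATS2, with a median of 0.13, beside a median of 0.02 over all loci tested. Of the 7, 5 were positive and 2 negative. The intervals were widest for AMOTL2, LATS2 and CCN1. Changes within the intervals given below are not excluded by 3 tumours a group, and the intervals are not adjusted for the number of loci.

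WWTR1 (ENSG00000018408, chromosome 3, minus strand, 149258802 to 149375888), the gene of the coactivator TAZ and paralogue of YAP1, had the highest level of the set. It stood at 67.0, 61.2 and 84.5 FPKM in the ZLD1039 tumours, against 66.7, 108 and 56.5 FPKM in the vehicle tumours. The highest and the lowest tumour both belonged to the vehicle group. The log2 difference was -0.08 (95% interval -0.68 to 0.53, limma adjusted p = 0.96), and it turned to 0.19 without vehicle tumour 2 and to 0.02 without ZLD1039 tumour 2.

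TEAD1 (ENSG00000187079, chromosome 11, plus strand, 12695969 to 12966298), the DNA-binding partner of both coactivators, stood at 13.0, 11.8 and 16.0 FPKM in the ZLD1039 tumours, against 15.1, 9.70 and 12.4 FPKM in the vehicle tumours. The groups overlapped throughout, with a log2 difference of 0.13 (95% interval -0.34 to 0.61, limma adjusted p = 0.91) that turned to -0.016 without vehicle tumour 2.

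Among the target genes, CCN1 and CCN2 encode secreted matricellular proteins. CCN1 (ENSG00000142871, chromosome 1, plus strand, 86046444 to 86049645) stood at 13.5, 23.7 and 25.4 FPKM in the ZLD1039 tumours, against 23.6, 18.5 and 12.5 FPKM in the vehicle tumours. Both groups spanned nearly the same range, with a log2 difference of 0.18 (95% interval -0.52 to 0.88, limma adjusted p = 0.92) that turned to -0.054 without vehicle tumour 3. CCN2 (ENSG00000118523, chromosome 6, minus strand, 132269316 to 132272513) stood at 17.2, 14.4 and 12.6 FPKM in the ZLD1039 tumours, against 23.1, 17.4 and 15.1 FPKM in the vehicle tumours. Its ZLD1039 values lay in the lower part of the range, yet overlapped, with a log2 difference of -0.30 (95% interval -0.77 to 0.18, limma adjusted p = 0.88). It was -0.14 without vehicle tumour 1, and -1.55 when the locus value was taken from start sites alone, because the CCN2 start is not listed in ZLD1039 tumour 2.

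AMOTL2 (ENSG00000114019, chromosome 3, minus strand, 134075027 to 134093436), an angiomotin family protein that binds YAP1 and is itself a target gene, stood at 8.48, 8.59 and 19.1 FPKM in the ZLD1039 tumours, against 8.88, 9.54 and 6.02 FPKM in the vehicle tumours. ZLD1039 tumour 3 alone stood out. The log2 difference of 0.44 (95% interval -0.30 to 1.18, limma adjusted p = 0.88) was 0.08 without that tumour and 0.26 without vehicle tumour 3. ANKRD1 (ENSG00000148677, chromosome 10, minus strand, 92671853 to 92681033), a nuclear ankyrin repeat protein often used as a readout of YAP1 activity, was listed at 0.54 and 0.57 FPKM in ZLD1039 tumours 2 and 3. It was not listed in ZLD1039 tumour 1 or in any vehicle tumour, and it did not reach the mean of 1 FPKM needed for a test.

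LATS1 (ENSG00000131023, chromosome 6, minus strand, 149979289 to 150039392), a kinase that phosphorylates YAP1 and TAZ, stood at 4.33, 5.14 and 5.95 FPKM in the ZLD1039 tumours, against 5.24, 4.37 and 5.28 FPKM in the vehicle tumours, a log2 difference of 0.04 (95% interval -0.38 to 0.45, limma adjusted p = 0.97). That sign turned without ZLD1039 tumour 3 (-0.055) and without vehicle tumour 2 (-0.036). LATS2 (ENSG00000150457, chromosome 13, minus strand, 21547171 to 21635686), the related kinase and also a known target gene of YAP1, stood at 2.62, 2.64 and 3.40 FPKM in the ZLD1039 tumours, against 2.57, 0.76 and 2.14 FPKM in the vehicle tumours. Its groups did not overlap, as at 10.9% of all loci tested, and the gap between 2.62 and 2.57 FPKM was small. The log2 difference was 0.52 (95% interval -0.18 to 1.22, limma adjusted p = 0.88). It was 0.21 without vehicle tumour 2, the low one, and 0.78 with a pseudocount of 0.1. Small antisense loci with the identifiers of AMOTL2 and LATS1 were listed in ZLD1039 tumour 3 only, at 0.62 and 0.65 FPKM, and were not tested.

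**Figure D4:**
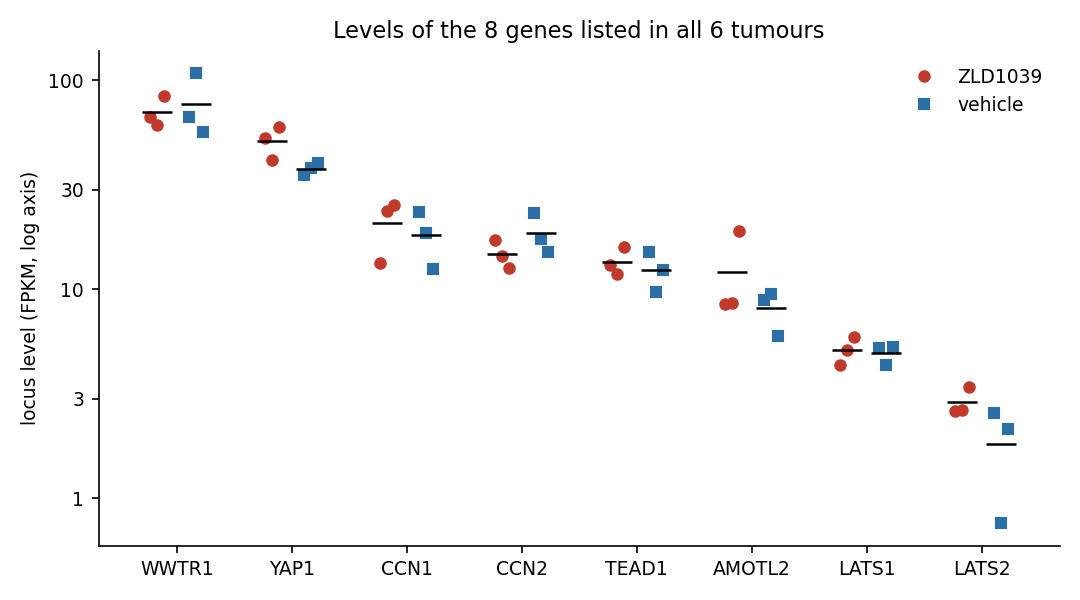
Locus level in FPKM on a log axis of the 8 genes listed in all 6 tumours, in order of their median, with ZLD1039 tumours as circles, vehicle tumours as squares and group means as lines. The groups overlap in every gene but YAP1 (41.5 to 59.7 against 35.2 to 40.3 FPKM) and LATS2 (2.62 to 3.40 against 0.76 to 2.57 FPKM). Across the series they did not overlap at 10.9% of loci tested. The YAP1 level includes the delta transcripts and is not independent of the pick.

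**Figure D5:**
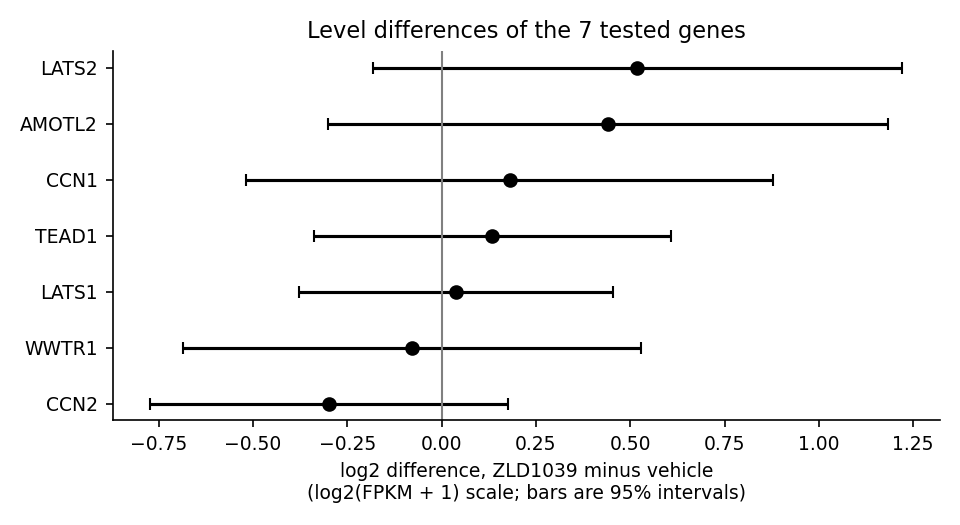
Difference in level, ZLD1039 minus vehicle, of the 7 tested genes on the log2(FPKM + 1) scale, with 95% intervals from limma over all loci. Each interval includes 0, and the estimates run from -0.30 for CCN2 to 0.52 for LATS2.

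By the median over the 6 tumours, the order of levels was WWTR1 at 66.8, YAP1 at 40.9, CCN1 at 21.1, CCN2 at 16.2, TEAD1 at 12.7, AMOTL2 at 8.73, LATS1 at 5.19 and LATS2 at 2.60 FPKM. The ranges of the tumours overlapped between the neighbours WWTR1 and YAP1, CCN1 and CCN2, CCN2 and TEAD1, and TEAD1 and AMOTL2. They did not overlap between YAP1 and CCN1, AMOTL2 and LATS1, or LATS1 and LATS2. The coactivators were thus the most abundant of the set and the LATS kinases the least abundant of those listed in all tumours.

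No event of the other members passed the test either. Of their 57 events, 41 averaged 1 FPKM or more in either group and none passed (limma on log2(FPKM + 1), adjusted over 87435 events, of which 0.0377% passed). None had an unadjusted p under 0.05 either, beside 4130 of 87435 events (limma). Events of 1 transcript can repeat its value, so the 41 are not independent. Groups did not overlap in 2 of the 41, the start and the end of LATS2, which carry the same values, beside 10.3% of all events tested.

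Start use varied among tumours within both groups. The upstream start of TEAD1 (chromosome 11, 12695969 to 12696381, plus strand) stood at 6.29, 0.151 and 14.1 FPKM in the ZLD1039 tumours, against 8.45, 6.36 and 0.186 FPKM in the vehicle tumours. Its internal start (12900990 to 12901389), the leading one on average, stood at 6.74, 11.6 and 1.78 FPKM in the ZLD1039 tumours, against 4.65, 3.34 and 12.2 FPKM in the vehicle tumours. ZLD1039 tumour 2 and vehicle tumour 3 thus listed TEAD1 almost wholly from the internal start, and ZLD1039 tumour 3 mostly from the upstream one. The internal start took 53.9 ± 43.8% of starts under ZLD1039 and 54.6 ± 38.1% under vehicle (SD, n = 3 each; difference -0.73 points, 95% interval -70.9 to 69.4, limma adjusted p = 0.999). Leaving out 1 tumour moved that difference between -23.2 and 21.2 points.

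LATS1 start listings differed between tumours too. Its upstream start (chromosome 6, 150038985 to 150039392, minus strand) was listed at 4.07 and 5.58 FPKM in ZLD1039 tumours 1 and 3 and at 5.07 FPKM in vehicle tumour 1. In vehicle tumour 2 the other start (150022915 to 150023490) was listed instead, at 4.37 FPKM. No LATS1 start was listed in ZLD1039 tumour 2 or vehicle tumour 3, although the end of the gene (149979289 to 149983374) was listed there at 5.14 and 5.28 FPKM. LATS1 start shares were therefore not tested.

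WWTR1 was started mainly at a single site (chromosome 3, 149375552 to 149375888, minus strand), which took 90.5 ± 9.58% of starts under ZLD1039 and 95.7 ± 1.21% under vehicle (SD, n = 3 each; difference -5.14 points, 95% interval -17.5 to 7.19, limma adjusted p = 0.77). Without ZLD1039 tumour 1 the difference was 0.36 points. That tumour alone listed another start event (149375612 to 149375888), at 10.1 FPKM or 15.1% of its starts. On the minus strand both events begin at 149375888 and differ only in where the first exon ends. The -5.14 points therefore concern the form of the first exon and not the start position. The leading start of CCN1 (chromosome 1, 86046444 to 86046730, plus strand) took 94.6 ± 4.21% under ZLD1039 and 95.5 ± 6.17% under vehicle (SD, n = 3 each; difference -0.87 points, 95% interval -10.7 to 9.01, limma adjusted p = 0.97). Leaving out 1 tumour moved it between -4.43 and 1.30 points. None of the 8 start events of these genes that could be tested passed (limma, 21321 start events, of which 0% passed). No unadjusted p of the 8 was under 0.05, beside 530 of 21321 start events (limma).

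The leading starts of the remaining genes were CCN2 at 132272247 to 132272513 on chromosome 6, AMOTL2 at 134093184 to 134093436 on chromosome 3, LATS2 at 21635485 to 21635686 on chromosome 13 and ANKRD1 at 92680758 to 92681033 on chromosome 10, all on the minus strand. Each was the sole start of its sense locus. The CCN2 start was not listed in ZLD1039 tumour 2, where the end of the gene (132269316 to 132270700) stood at 14.4 FPKM. Ends were sole sites too: CCN1 at 86048423 to 86049645, TEAD1 at 12958656 to 12966298, AMOTL2 at 134075027 to 134076605, LATS2 at 21547171 to 21549503 and ANKRD1 at 92671853 to 92672733. No end share of a member could be tested for that reason, and WWTR1 had no listed end. Over the series 4610 end sites were tested, of which 0% passed, and the groups did not overlap at 8.05% of them.

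Among exons and introns of these genes, 2 passed the filters for a test and neither passed it (limma on percent inclusion, 13311 exons and introns, of which 0% passed). A TEAD1 exon (12696956 to 12697108, 153 bases) was included at 98.4, 0 and 61.8% in the ZLD1039 tumours, against 72.6, 98.3 and 0% in the vehicle tumours. The tumours at 0% are ZLD1039 tumour 2 and vehicle tumour 3, where the exon was measured on only 0.151 and 0.186 FPKM of transcripts from the upstream start. The difference was -3.55 points (95% interval -93.6 to 86.5, limma adjusted p = 0.99), and leaving out 1 tumour moved it between -32.0 and 23.2 points. An intron of CCN1 (between the exon edges 86047261 and 86047611) was retained at 14.8% in vehicle tumour 3 and at 0% in the others, a difference of -4.94 points (95% interval -15.7 to 5.79, limma adjusted p = 0.71). Neither had an unadjusted p under 0.05, beside 271 of 13311 items (limma). In the inclusion data the groups did not overlap at 7.1% of items across the series, and for start shares at 8.07%.

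Items outside the filters were mostly not measured in all tumours. A run of TEAD1 exons (12886385 to 12901389) was included at 100% in ZLD1039 tumour 3 and at 100 and 0% in vehicle tumours 1 and 2. A TEAD1 intron (between 12886295 and 12886385) was retained at 100 and 8.03% in ZLD1039 tumours 1 and 3 and at 41.1% in vehicle tumour 1. A TEAD1 exon of 135 bases (12901255 to 12901389) was included at 79.1% in vehicle tumour 2 and at 100% in the other tumours that listed it. A CCN2 intron (between 132271683 and 132271910) was retained at 15.4% in vehicle tumour 1 and at 0% in the other tumours in which it was listed. A TEAD1 exon of 12 bases (12900436 to 12900447) was skipped in all 4 tumours that listed it. A TEAD1 exon of 63 bases (12886233 to 12886295) was included at 47.0% in ZLD1039 tumour 3 and at 33.8 and 0% in vehicle tumours 1 and 2. A later TEAD1 exon (12923487 to 12923660, 174 bases) was included at 95.7% in ZLD1039 tumour 3 and at 100% in the other 5 tumours.

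The wider pathway showed no called change either. A list of 19 further identifiers, set down from background knowledge for TEAD factors, upstream kinases and their adaptors, angiomotins and other regulators, had 18 listed in at least 1 tumour and 16 tested. None of the 16 passed (limma, adjusted over all 10834 loci). None had an unadjusted p under 0.05, beside 535 of all loci tested (limma). Their log2 differences ran from -0.50 to 0.37 with a median of -0.01, 7 positive and 9 negative, beside a median of 0.02 over all loci. The groups did not overlap at 1 of the 16, beside 10.9% of all loci tested. The sources used here do not pair these identifiers with gene names, so the genes are not named one by one.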

How the data were processed

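RNA was measured in 6 A375 xenograft tumours, 3 per group, with groups and replicate numbers taken from the sample titles. The authors deposited, per the file headers, an FPKM value for each transcript event of a tumour, and events of 1 transcript can repeat its value. The submitters' processing notes name mm10, a mouse build, and the tools HTSeq 0.6.1 and bcl2fastq 2.17.1.14. The positions are on a human build, which, like the aligner, assembler and event caller, is not given in the sources used here. Positions are as in the files. The names of the 10 genes come with the list that chose them. The genes, lists and the YAP1 exon were chosen with earlier results of these data known.

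Unlisted events and loci were given 0. Junction coordinates of skipped exons had lost the digits after the 15th in the deposited files, so inclusion and skipping were paired on the digits that remain. Between 144 and 163 events per tumour could no longer be told apart and were summed, none of them in YAP1. Values as small as 1e-06 FPKM are listed, so they are not steps of whole fragments and depth cannot be recovered. Where either group averaged 1 FPKM or more, loci and events went into limma 3.58.1 (R 4.3.3) as log2(FPKM + 1). The prior variance followed a trend over the mean level, p-values were adjusted by Benjamini-Hochberg over each whole table, and the threshold was 0.05. Changes of low values are understated on that scale. Shares in percent were tested with limma where the mean total was at least 1 FPKM, the total was above 0 in all tumours and the mean share was over 1% and under 99%. The code was tested on simulated data. Genes named in the text were all members, their leading sites, and every exon and intron that passed the filters, with the 3 loci most like YAP1. Other sites and exons were named after their values were seen. Same-numbered tumours were not taken as pairs.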

Additional observations from a re-analysis of the deposited data

How the results depend on the processing

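All alternatives were planned with earlier results of these data known. The count of members or pathway genes called by limma stayed at 0 under each alternative for loci, events, exons and introns, and start and end sites, with 1 tumour left out, other filters, pseudocounts and scaling, no trend and the replicate block. Same-numbered tumours share a number only: the deviations from the group means correlated at -0.03, 0.02 and -0.06 for numbers 1, 2 and 3, and the replicate block gave 0 calls, as without it, and 0 instead of 2 calls over all loci. With 1 tumour left out, the log2 difference ran from -0.27 to 0.19 for WWTR1, -0.016 to 0.28 for TEAD1, -0.054 to 0.45 for CCN1 and -0.055 to 0.14 for LATS1, each with a change of sign. The leading start share ran from -8.45 to 0.36 points for WWTR1 (leading form of its first exon), -23.2 to 21.2 for TEAD1 and -4.43 to 1.30 for CCN1. The TEAD1 exon ran from -32.0 to 23.2 points. The log2 difference of CCN2 was -1.55 with summed starts, because its start is not listed in ZLD1039 tumour 2, and that of LATS2 was 0.78 with a pseudocount of 0.1. For YAP1, the 48-base exon differed by 47.5 to 54.6 points after the longer end, 13.4 to 43.4 after the shorter end and 20.3 to 49.4 over both; the internal start by 8.15 to 9.85 FPKM and the locus by 0.31 to 0.57 on the log2 scale. Over the whole tables limma's calls ran from 0 to 2 for loci, and for events, 33 as reported, from 0 with the replicate block to 64 without the trend. For exons and introns, start shares and end shares, the 0 calls as reported became 20, 11 and 7 without the trend (the cause was not tested), with 271, 530 and 132 at an unadjusted p under 0.05 as reported. With 3 tumours a group and unknown depth, differences within the intervals given are not excluded.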
